A study of Mus musculus with 8 samples.

Results

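The 10 genes described here are feedback genes of the ERK pathway in mouse CAD cells with and without targeting of Pfn1. They are 4 dual-specificity phosphatase genes (Dusp1, Dusp4, Dusp5 and Dusp6), 3 Sprouty genes (Spry1, Spry2 and Spry4), both broadly expressed Spred genes (Spred1 and Spred2) and Ier3. They were chosen by name, and all 10 were found among the 23038 genes of the deposited expression table.

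ERK is the last kinase of a relay in which growth factor receptors activate RAS, RAS activates RAF, RAF activates MEK, and MEK phosphorylates ERK on a threonine and a tyrosine. Dual-specificity phosphatases remove both phosphates, Sprouty proteins act near the receptor and RAS, and Spred proteins recruit the RAS inhibitor neurofibromin. Many of these genes are themselves transcribed in response to ERK, so their transcripts are widely used as readouts of the pathway, although each also answers to other signals.

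RNA was sequenced from CAD cells (Cath.a differentiated), a mouse catecholaminergic neuronal line derived from a brain tumour, grown undifferentiated in medium with 8% fetal bovine serum. There were 4 control libraries and 4 from cells in which CRISPR/Cas9 guide RNAs had targeted Pfn1, the gene of the actin-monomer-binding protein profilin 1. By title the controls are wild type, while their genotype is given as a control knockout, and what they received is not given in the sources used here. Nor do these say whether the replicates came from different clones or separate cultures, so that the p-values reflect no more than the spread among these 8 samples. In bulk RNA, fewer cells of a type and less RNA per cell cannot be told apart.

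Estimated depth was 26200000 to 34500000 reads per library. Pfn1 fell from 423 ± 16.4 to 139 ± 10.8 RPKM (reads per kilobase of gene, scaled to the counted reads of the library; SD, n = 4 each). Cells labelled knockout thus kept 32.9% of the control transcript level. Of 8 catecholaminergic markers 7 passed the filter, and Hand2 and Phox2a stood at 208 ± 3.5 and 144 ± 3.96 RPKM in control cells and the enzyme gene Dbh at 31.7 ± 2.15 RPKM. The enzyme genes Th and Ddc were low, at 2.25 ± 0.404 and 0.339 RPKM. In knockout libraries Dbh fell to 32.7% and Th to 34.3% of control (adjusted p = 8.41e-08 and 3.58e-05, limma). At 0.773 RPKM in knockout libraries, Th passed the filter only through its control level. Of the 7 markers, 1 was called higher and 4 lower, also with median-of-ratios scaling. Of 7 neuronal markers 5 passed, with Nefl and Nefm under the filter. Of these 5, 4 were called higher in the knockout libraries and 0 lower, or 3 and 0 with that scaling. Over all tested genes 30.4% were called higher and 15.5% lower, or 22.6% and 25% with that scaling. The markers are too few to set against these shares. The 13 markers of glia, leukocytes, endothelium and fibroblasts summed to 6.07 to 7.95 RPKM in control and 7.65 to 8.28 RPKM in knockout libraries, with Aqp4 listed at 0 in all; their part in the results was not tested.

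The members covered a wide range of levels. In control cells Dusp6 was highest, at 109 ± 6.21 RPKM, followed by Dusp4 at 103 ± 1.69 RPKM, and their values overlapped. Spred1 came next at 58.8 ± 2.84 RPKM, then Spry2 at 29.1 ± 1.58, Spred2 at 22.6 ± 1.44, Ier3 at 19 ± 0.494, Spry4 at 12.6 ± 0.993 and Spry1 at 7.26 ± 0.527 RPKM. Dusp1 and Dusp5 were lowest, at 5.18 ± 0.223 and 4.69 ± 0.27 RPKM, and overlapped each other. All other neighbours in this order were separated in every control library. In knockout cells the order was the same except that Ier3 moved above Spry2 and Spred2, at 29.1 ± 0.422 RPKM, and Ier3 and Spry2 overlapped. Dusp6 and Dusp4 lay at the 95.9th and 95.4th percentile of all tested genes in control cells, and Dusp5 at the 28th.

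Knockout was compared with control by limma on log2(RPKM + 1) over the 11465 genes whose mean reached 1 RPKM in either group, with calls made at 0.05 on two-sided p-values adjusted by the Benjamini-Hochberg method. All 10 members were tested, each above 1 RPKM in both groups. Ier3, Spred1, Spry1, Dusp6 and Dusp4 rose and Dusp5 fell. That is 5 members higher and 1 lower, where 45.9% of all tested genes were called, 30.4% higher and 15.5% lower. The share of members called (60%) is therefore not far from that of any genes in these libraries. The median log2 fold change of the members was 0.12, against 0.06 over all tested genes. For 7 of the 10 there was no overlap between control and knockout values, 6 of them higher and 1 lower in knockout libraries. Over all tested genes this held for 41.4%, with 26.7% higher and 14.7% lower.

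Which of the smaller changes were called depended on how libraries were scaled, while all 10 members kept their direction. With median-of-ratios scaling 4 members were higher (Ier3, Spred1, Spry1 and Dusp6) and 2 lower (Dusp5 and Spry2), against 22.6% and 25% of all tested genes, or 47.6% in either direction. That scaling took the share of increases among all called genes from 66.3% to 47.5%, and the median log2 fold change of all tested genes from 0.06 to -0.01.

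**Figure D1:**
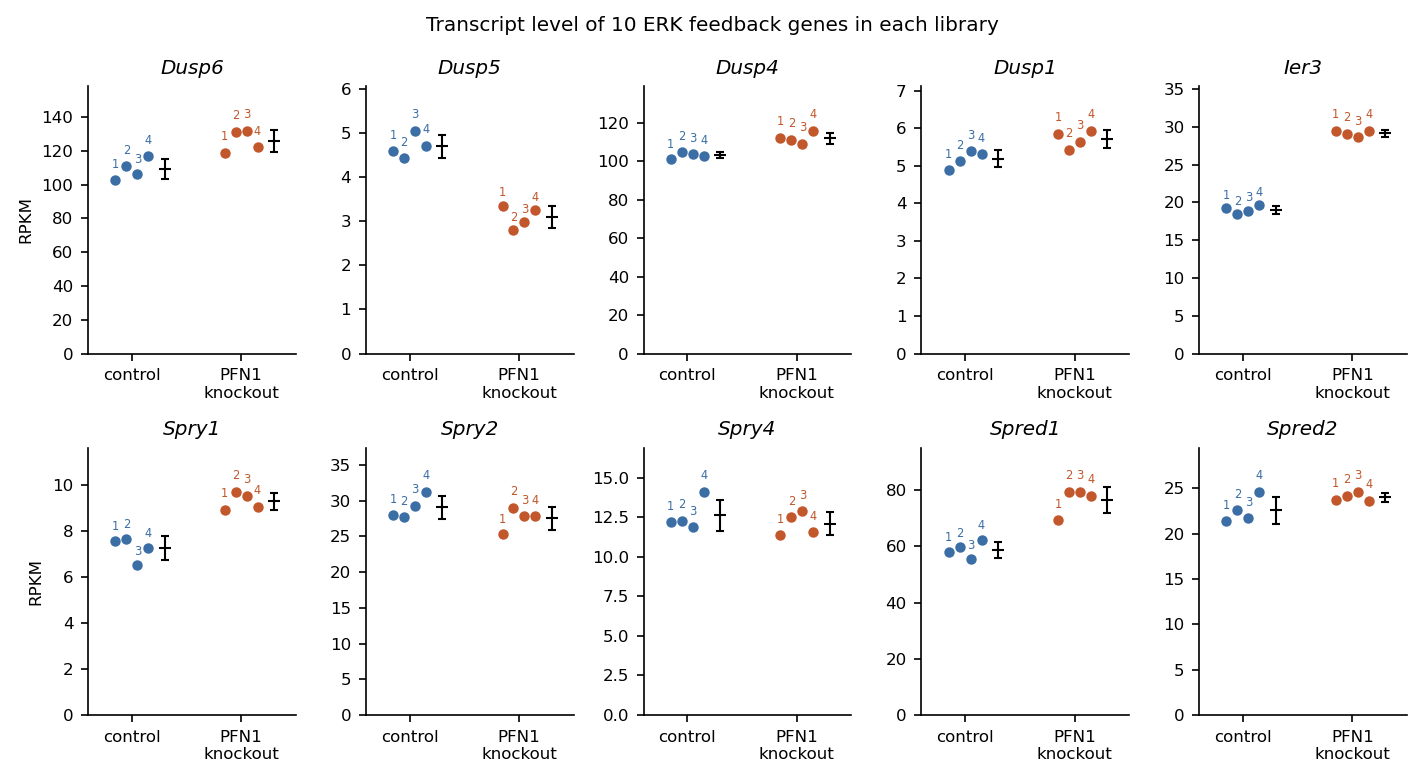
RPKM (y axes, from 0) of each member in the 4 control and 4 PFN1 knockout libraries. Points are libraries with their replicate numbers, and bars are the mean and SD. Knockout values of Ier3, Spred1, Spry1, Dusp6, Dusp4 and Dusp1 all lie above the control values, those of Dusp5 all below, and the groups overlap for Spry2, Spry4 and Spred2.

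**Figure D2:**
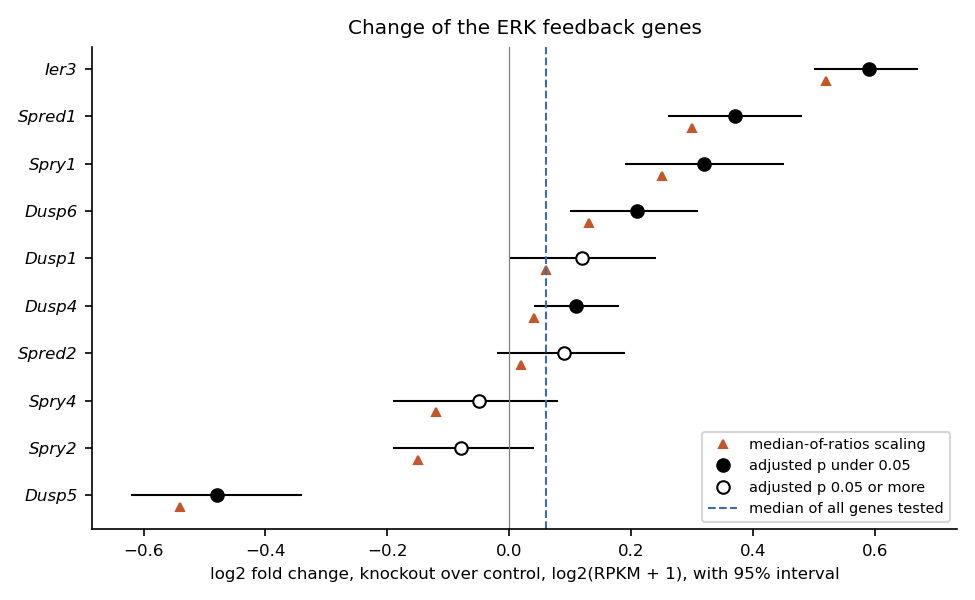
Log2 fold change of each member, knockout over control, on the log2(RPKM + 1) scale, with its 95% interval from limma. Filled circles passed an adjusted p of 0.05 and triangles give the value with median-of-ratios scaling. Values run from -0.48 for Dusp5 to 0.59 for Ier3, and the dashed line marks the median of all tested genes at 0.06.

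Promoter windows, 250 bases before to 50 bases after the start site, were available from RefSeq on GRCm38.p6 for 8 members, without Dusp4 and Spry4. The windows are shown for Dusp5 and Ier3, the members with the greatest fall and rise, and for Dusp6 and Dusp1 as the ERK-specific and the stress-kinase phosphatase. Capitals mark motifs found on either strand. The letters searched were CCGGAAG for ETS factors, TGANTCA for AP-1, TGACGTCA for the cyclic AMP response element, TATAAA for the TATA box, GGGCGG for the GC box, and the CCAAT box as named. The CArG box of serum response factor and the NF-kB motif were searched as well. Each sequence is written along the gene's own strand.
Dusp5, plus strand, chr19:53528895-53529194: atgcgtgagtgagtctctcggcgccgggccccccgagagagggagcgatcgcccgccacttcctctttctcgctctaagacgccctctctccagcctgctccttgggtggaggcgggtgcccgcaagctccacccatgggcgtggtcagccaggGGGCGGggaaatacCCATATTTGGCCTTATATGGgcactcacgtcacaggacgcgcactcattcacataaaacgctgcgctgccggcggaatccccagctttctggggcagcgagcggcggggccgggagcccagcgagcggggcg
Ier3, plus strand, chr17:35821463-35821762: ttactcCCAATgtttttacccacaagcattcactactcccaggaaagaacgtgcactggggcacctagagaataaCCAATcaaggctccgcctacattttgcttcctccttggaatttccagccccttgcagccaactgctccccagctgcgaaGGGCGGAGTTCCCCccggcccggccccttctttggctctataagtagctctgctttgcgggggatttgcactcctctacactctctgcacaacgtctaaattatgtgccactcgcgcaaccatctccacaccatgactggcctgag
Dusp6, plus strand, chr10:99262981-99263280: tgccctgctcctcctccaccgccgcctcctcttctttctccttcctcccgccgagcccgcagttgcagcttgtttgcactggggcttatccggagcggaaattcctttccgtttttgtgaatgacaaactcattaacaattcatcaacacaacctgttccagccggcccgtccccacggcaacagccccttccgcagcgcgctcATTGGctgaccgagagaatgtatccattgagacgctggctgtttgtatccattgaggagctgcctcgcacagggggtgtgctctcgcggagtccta
Dusp1, minus strand, chr17:26508423-26508722: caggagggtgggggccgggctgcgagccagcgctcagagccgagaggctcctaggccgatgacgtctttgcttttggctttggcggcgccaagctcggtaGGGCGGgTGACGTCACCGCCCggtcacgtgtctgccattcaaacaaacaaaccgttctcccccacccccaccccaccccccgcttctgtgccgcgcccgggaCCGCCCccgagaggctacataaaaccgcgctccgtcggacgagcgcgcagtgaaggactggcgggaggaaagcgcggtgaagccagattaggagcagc
Dusp5 held 2 adjoining CArG boxes, at positions -82 to -73 and -72 to -63 from the start site. A CArG box was found in 1.6% of 32851 windows of the same length, and in none of the other 7 member windows. Dusp1 held the cyclic AMP response element at -143 to -136, a motif in 1.8% of all windows, between GC boxes on either side. Ier3 held an NF-kB motif at -92 to -83 (8.5% of windows), which overlaps a GC box at -96 to -91, and 2 CCAAT boxes. In Dusp6 the only match was a CCAAT box on the opposite strand at -46 to -42, a motif in 37.4% of windows. None of the 8 windows held the ETS, AP-1 or TATA letters, which were in 8.9%, 7.8% and 13.6% of all windows. These matches describe letters and not binding, which was not analysed here. The 8 windows were rich in G and C, from 54% in Ier3 to 72.3% in Spred1, against a median of 52.7% over all windows.

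Dusp6 encodes the cytoplasmic phosphatase most specific for ERK. It stood at 103, 111, 106 and 117 RPKM in control libraries 1 to 4 and at 119, 131, 132 and 122 RPKM in knockout libraries 1 to 4. Every knockout library was above every control library, the nearest being knockout library 1 and control library 4. Mean RPKM rose 1.15-fold (log2 fold change 0.21, SE 0.0488, adjusted p = 0.00504, limma). With median-of-ratios scaling the log2 fold change was 0.13 (adjusted p = 0.0178; the alternatives gave 0.000808 to 0.0194).

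Dusp5 encodes a nuclear, ERK-specific phosphatase and was the one member called lower without rescaling of the libraries. Spry2 and Spry4 had small negative log2 fold changes (-0.08 and -0.05) that were not called there. It stood at 4.58, 4.42, 5.05 and 4.71 RPKM in the control libraries and at 3.35, 2.79, 2.97 and 3.24 RPKM in the knockout libraries. The groups were well apart, with a mean of 3.09 ± 0.257 RPKM in knockout cells, or 65.8% of control (log2 fold change -0.48, SE 0.0647, adjusted p = 0.000134, limma). The size of this change was at the 93.1st percentile of all tested genes. Dusp5 rested on the fewest reads of the members, an estimated 91.9 to 180 per library. At the lowest, counting error alone gives a coefficient of variation (CV) of 10.4%, against a measured CV of 8.32% between knockout libraries. Its adjusted p lay between 0.0001 and 0.00102 over the alternatives.

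Dusp4, whose product is a nuclear phosphatase of ERK and of the stress kinases, was nearly as abundant as Dusp6. It stood at 101, 105, 104 and 103 RPKM in control and 112, 111, 109 and 116 RPKM in knockout libraries. The groups did not overlap, and mean RPKM was 1.08-fold that of control (log2 fold change 0.11, SE 0.0332, adjusted p = 0.0164, limma). This call was lost with median-of-ratios scaling (log2 fold change 0.04, adjusted p = 0.423) and with upper-quartile scaling (0.107). It was also lost without control library 1 (0.054) or knockout library 4 (0.0569), and the alternatives together spanned 0.0139 to 0.423.

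Dusp1, an immediate-early gene whose product prefers the stress kinases p38 and JNK, did not pass. Its values were 4.89, 5.13, 5.4 and 5.32 RPKM in control and 5.86, 5.43, 5.64 and 5.94 RPKM in knockout libraries. The groups just failed to overlap, and the log2 fold change was 0.12 with a 95% interval of 0.00 to 0.24 (adjusted p = 0.0879, limma).

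Ier3, an immediate-early gene whose product can prolong ERK phosphorylation by opposing a phosphatase and also affects cell survival, had the greatest rise among the members. It stood at 19.2, 18.4, 18.9 and 19.6 RPKM in control and at 29.4, 29, 28.6 and 29.5 RPKM in knockout libraries. The spread inside each group was small, with a CV of 2.59% in control and 1.45% in knockout libraries, and the gap between groups was many times wider. Mean RPKM rose 1.53-fold (log2 fold change 0.59, SE 0.0385, 95% interval 0.50 to 0.67, adjusted p = 7.37e-07, limma), at the 95.8th percentile of all tested genes by size.

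The Sprouty genes encode membrane-associated inhibitors of receptor signalling, and they did not move together. Spry1, the least abundant of them, stood at 7.57, 7.67, 6.51 and 7.28 RPKM in control and at 8.93, 9.69, 9.54 and 9.04 RPKM in knockout libraries. All 4 knockout libraries were above all control libraries, and control library 3 was the lowest of the 8. Mean RPKM rose 1.28-fold (log2 fold change 0.32, SE 0.0582, adjusted p = 0.000997, limma).

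Spry2 was the most abundant Sprouty gene, at 28, 27.7, 29.3 and 31.2 RPKM in control and 25.3, 29, 27.9 and 27.9 RPKM in knockout libraries. The groups overlapped, with the highest value in control library 4 and the lowest in knockout library 1. Its log2 fold change was -0.08 (95% interval -0.19 to 0.04, adjusted p = 0.254, limma). It passed as lower with median-of-ratios scaling (log2 fold change -0.15, adjusted p = 0.0126) and with upper-quartile scaling (0.046), in a range of 0.0126 to 0.934.

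Spry4 stood at 12.2, 12.3, 11.9 and 14.1 RPKM in control and at 11.4, 12.5, 12.9 and 11.6 RPKM in knockout libraries. The groups overlapped, and control library 4 was the highest of the 8. Its log2 fold change was -0.05 (95% interval -0.19 to 0.08, adjusted p = 0.487, limma). Without control library 4 and knockout library 1 it was 0.02 (adjusted p = 0.757).

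Spred1 and Spred2 encode related inhibitors that bind neurofibromin and bring it to RAS at the membrane. Spred1 stood at 58.1, 59.6, 55.4 and 62.2 RPKM in control and at 69.4, 79.3, 79.3 and 77.9 RPKM in knockout libraries. The groups did not overlap, and knockout library 1 lay between the controls and the other 3 knockout libraries. Mean RPKM rose 1.3-fold (log2 fold change 0.37, SE 0.0508, adjusted p = 0.000141, limma). Spred1 lies on chromosome 2, where 68.5% of 947 tested genes were called higher, against 27% of the genes elsewhere. The median log2 fold change was 0.26 on chromosome 2 and 0.04 elsewhere, and the change of Spred1 was at the 70.4th percentile of its chromosome and the 92.5th of the others. No other member lies on chromosome 2, and what part the shift of that chromosome has in the rise of Spred1 was not tested.

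Spred2 stood at 21.4, 22.6, 21.7 and 24.6 RPKM in control and at 23.7, 24.2, 24.6 and 23.6 RPKM in knockout libraries. Control library 4 was level with the highest knockout library, so the groups overlapped. The log2 fold change was 0.09 (95% interval -0.02 to 0.19, adjusted p = 0.15, limma). Without control library 4 Spred2 passed as higher (log2 fold change 0.13, adjusted p = 0.0225), as it did without that library and knockout library 1 (0.14, adjusted p = 0.0155), in a range of 0.0155 to 0.681.

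Because members of one family differed, their ratios were compared within libraries, where the scaling of a library cancels. These ratios were chosen after the values were seen. The 10 pairs within a family were compared by a two-sided exact permutation of 4 against 4 libraries, for which 0.0286 is the smallest possible p. The log2 ratio of Dusp5 to Dusp6 went from -4.54 ± 0.13 in control to -5.36 ± 0.19 in knockout libraries, a difference of -0.81. The log2 ratios of Dusp4 and Dusp1 to Dusp5 rose by 0.72 and 0.75. In these 3 pairs the values of both genes already lay apart between the groups in opposite directions, so the ratios had to separate and are given with no test.

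Spry1 rose relative to both other Sprouty genes. Its log2 ratio to Spry2 rose by 0.44 to -1.56 ± 0.05, and that to Spry4 went from -0.80 ± 0.13 to -0.38 ± 0.04 (exact permutation p = 0.0286 for both, unadjusted). The log2 ratio of Spred1 to Spred2 went from 1.38 ± 0.05 to 1.67 ± 0.08, with the same p. Adjustment over all 10 pairs would count those with Dusp5, whose separation was fixed, so no adjusted p is given. An adjustment over the pairs without Dusp5 was not made. No ratio is therefore called on its unadjusted p, which is the smallest possible. Spry1 and Spred1 also lay apart between the groups on their own, so these ratios were likely to separate. Spred1 lies on chromosome 2, where the median log2 fold change was 0.26 against 0.04 elsewhere, and Spred2 on chromosome 11. What part that shift has in their ratio was not tested. In the pairs of Spry1 and of Spred1, too, the groups did not overlap. In the remaining 4 pairs they did: the log2 ratios changed by 0.03 for Dusp1 to Dusp4 (exact permutation p = 0.286), by -0.07 for Dusp1 to Dusp6 (p = 0.429), by -0.09 for Dusp4 to Dusp6 (p = 0.2) and by -0.02 for Spry2 to Spry4 (p = 0.714).

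**Figure D3:**
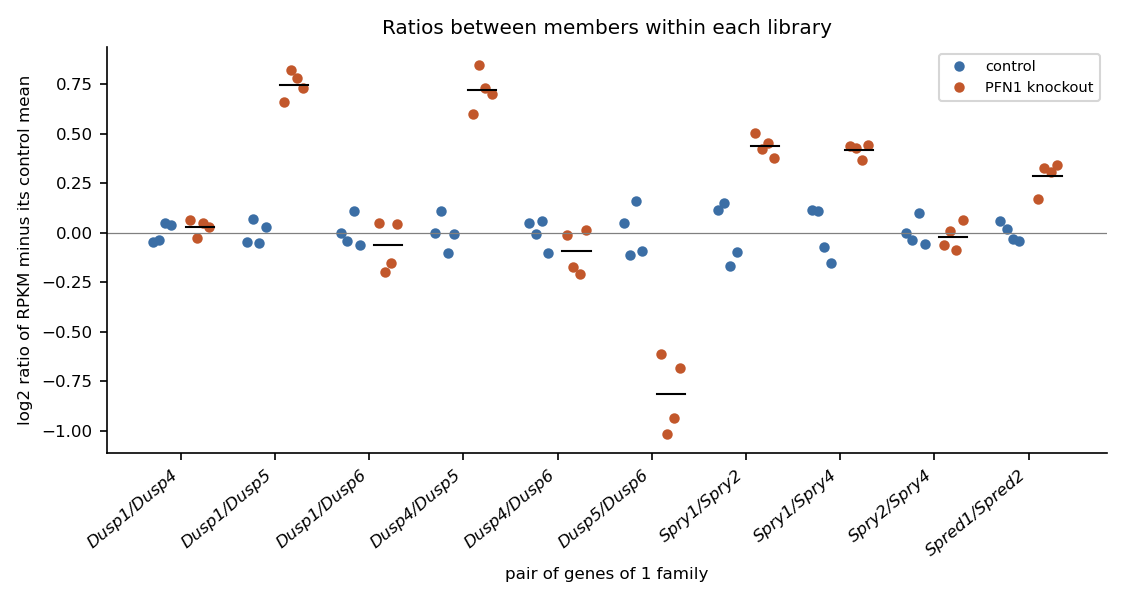
Log2 ratio of RPKM between 2 members of a family in each library (y axis), set to 0 at the mean of the control libraries, for 10 pairs (x axis). Points are libraries and short lines the knockout means. The groups are apart in the 3 pairs with Dusp5, in Spry1 against Spry2 and Spry4, and in Spred1 against Spred2.

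Replicates of a group lay close together for the members. Their CV was 1.63 to 7.88% in control libraries (median 5.56%, against 6.03% over all tested genes) and 1.45 to 8.32% in knockout libraries (median 4.65%, against 6.47%). Control library 4 lay above the control mean for 9 of the 10 members, and control library 1 below it for 8. The median offset of the members in control library 4 was 0.061 on the log2(RPKM + 1) scale, and that of all tested genes was 0.062. Knockout library 1 was lowest of its group for Dusp6, Spry1, Spry2, Spry4 and Spred1, and highest for Dusp5.

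**Figure D4:**
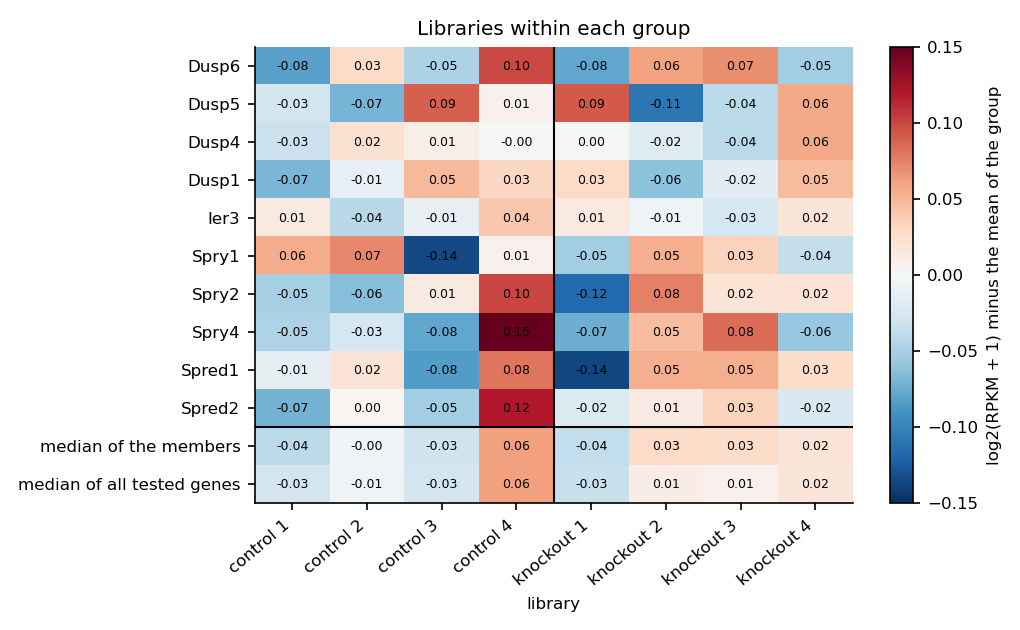
Deviation of each library (x axis) from the mean of its own group, in log2(RPKM + 1), for each member and for the medians of the members and of all tested genes (rows). Control library 4 is high for 9 of 10 members, by a median of 0.061, and knockout library 1 is low for Spred1 and Spry2.

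The counts in the gene lists that follow stand beside the shares over all tested genes. These were 30.4% called higher and 15.5% lower, or 22.6% and 25% with median-of-ratios scaling. No list was tested as a set. Other MAP kinase phosphatases went both ways. Of 6 listed and tested, 3 were called higher and 1 lower, or 1 and 1 with median-of-ratios scaling. Dusp9, an ERK-selective phosphatase on the X chromosome, fell from 1.73 ± 0.137 to 0.586 ± 0.129 RPKM, 33.9% of control (adjusted p = 1.56e-05, limma), and passed the filter only through its control level. Dusp16, which acts mainly on JNK and p38, rose 1.45-fold, from 4.29 ± 0.318 to 6.21 ± 0.31 RPKM (adjusted p = 0.000143). The calls of Dusp2 (on chromosome 2) and Dusp8, at 1.18-fold and 1.16-fold (adjusted p = 0.0433 and 0.0446), were fragile. Dusp2 lost its call without control library 2, 3 or 4 or knockout library 1 or 4 (adjusted p = 0.0898, 0.121, 0.0728, 0.096 and 0.132). Dusp8 lost it without control library 2, 3 or 4 or knockout library 2, 3 or 4 (adjusted p = 0.0692, 0.126, 0.0628, 0.0609, 0.0978 and 0.127). Neither passed with median-of-ratios or upper-quartile scaling. Without control library 2 or 3 or knockout library 4 the list had 2 calls, 1 higher and 1 lower.

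Among 10 small atypical dual-specificity phosphatase genes 6 were tested, 4 of them called higher and 0 lower (2 and 0 with median-of-ratios scaling). Over all tested genes 30.4% were called higher, or 22.6% with that scaling, and 6 genes are too few to set against these shares. Dusp3, whose product can dephosphorylate ERK, rose from 5.01 ± 0.261 to 6.53 ± 0.114 RPKM (adjusted p = 0.000454, limma). Dusp19, on chromosome 2, rose from 2.97 ± 0.205 to 4.23 ± 0.311 RPKM (adjusted p = 0.000488). Dusp22 rose from 0.939 ± 0.148 to 1.27 ± 0.116 RPKM and was tested only through its knockout level (adjusted p = 0.0293). Its call was lost without control library 3 or knockout library 2 or 3 (adjusted p = 0.0864, 0.0777 and 0.0647) and with median-of-ratios scaling (0.0555). Without control library 3, or without knockout library 3, 2 genes of the list were called.

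Of 19 other inhibitors of receptor and RAS signalling 14 were tested, 3 called higher and 4 lower, or 1 and 6 with median-of-ratios scaling. Il17rd, a membrane inhibitor of fibroblast growth factor signalling also known as Sef, stood at 6.52, 6.64, 6.82 and 7.24 RPKM in control and at 3.69, 4.47, 4.46 and 3.73 RPKM in knockout libraries. It fell to 60.1% of control (log2 fold change -0.62, adjusted p = 3.05e-05, limma). Rasa1, a RAS GTPase-activating protein gene, fell from 40.9 ± 0.655 to 32.3 ± 4.47 RPKM, and Lrig1, an inhibitor of ERBB receptors, from 14.3 ± 0.666 to 12 ± 1.06 RPKM. Spred3, the third Spred gene, rose from 4.45 ± 0.499 to 5.37 ± 0.235 RPKM (adjusted p = 0.0188), a call lost without control library 3 (0.0595).

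Upstream of RAS, few growth factor genes were expressed, and of 30 listed 8 were tested. Of these, 2 were called higher and 2 lower, or 2 and 3 with median-of-ratios scaling. Btc, the gene of the ERBB ligand betacellulin, was at 0.0817, 0.141, 0.0928 and 0.179 RPKM in control and at 2.38, 2.04, 1.75 and 2.44 RPKM in knockout libraries (log2 fold change 1.48, adjusted p = 2.54e-07, limma). Its control level rested on as few as an estimated 6.93 reads in a library, and Btc was tested only through its knockout level. The same holds for Fgf13, an intracellular member of the fibroblast growth factor family that is not a receptor ligand, at 0.249 ± 0.0876 and 1.02 ± 0.17 RPKM (adjusted p = 7.35e-05). Pdgfc fell from 3.68 ± 0.217 to 2.11 ± 0.256 RPKM and Vegfa from 20.6 ± 1.68 to 17.4 ± 1.19 RPKM.

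Of 23 receptor tyrosine kinase genes 11 were tested, 2 called higher and 5 lower, also with median-of-ratios scaling. Alk rose 1.95-fold, from 3.04 ± 0.133 to 5.92 ± 0.427 RPKM. Axl fell from 2.28 ± 0.239 to 0.475 ± 0.0104 RPKM, passing the filter only through its control level, and Fgfr3 fell from 5.09 ± 0.383 to 3.54 ± 0.239 RPKM. Ret and Fgfr1, abundant receptor genes chosen after their values were seen, went opposite ways. Ret, the receptor for glial-cell-line-derived ligands, rose from 76.1 ± 1.27 to 91.9 ± 3.23 RPKM (adjusted p = 0.00011, limma), and Fgfr1 fell from 34.2 ± 1.1 to 29.1 ± 1.01 RPKM (adjusted p = 0.00105). Egfr, Erbb2, Met and Pdgfra stayed under the filter in both groups.

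All 32 genes of the relay from adaptors to ERK and its kinases were tested, 8 called higher and 7 lower, or 6 and 10 with median-of-ratios scaling. Rras rose 1.46-fold and Mknk1, an ERK-activated kinase gene, 1.37-fold, while Mras fell to 65.9% and the adaptor gene Gab1 to 51.2% of control, the last tested only through its control level. The ERK gene Mapk3 and the MEK genes Map2k1 and Map2k2, named after their values were seen, did not pass. Mapk3 stood at 24.3 ± 0.744 and 26.1 ± 1.29 RPKM (log2 fold change 0.10, 95% interval -0.00 to 0.20, adjusted p = 0.0994, limma). Map2k1 stood at 22.2 ± 0.612 and 21.1 ± 0.707 RPKM and Map2k2 at 51.4 ± 1.56 and 53.4 ± 3.73 RPKM. With median-of-ratios scaling Map2k1 passed as lower (adjusted p = 0.0271).

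The stress kinases JNK and p38, substrates of Dusp1 and Dusp16 products, had 9 of 11 genes tested, 3 higher and 1 lower, or 2 and 2 with median-of-ratios scaling. The p38 genes Mapk11 and Mapk12 rose 1.44-fold and 1.31-fold (adjusted p = 7.6e-05 and 0.00134, limma), and the JNK activator gene Map2k4 fell to 87.1% of control. Mapk9, a JNK gene, was called higher at 1.16-fold (adjusted p = 0.0258). Its call was lost without control library 1, 2 or 3 or knockout library 2 or 3 (adjusted p = 0.0642, 0.0638, 0.0756, 0.0723 and 0.071) and with median-of-ratios scaling (0.0614).

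Other transcripts known to rise with ERK activity were split. Of 24 listed 18 were tested, and 7 were called higher and 6 lower, or 5 and 7 with median-of-ratios scaling; their median log2 fold change was 0.06, that of all tested genes. Plaur, the urokinase receptor gene, rose from 13.1 ± 0.464 to 19.3 ± 1.47 RPKM and the AP-1 gene Jun from 22.6 ± 0.742 to 30 ± 1.1 RPKM. Arc fell from 7.78 ± 0.556 to 5.68 ± 0.277 RPKM and Ier5 from 11 ± 0.25 to 8.15 ± 0.392 RPKM. The adjusted p of these 4 was at most 0.00032 (limma).

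Egr1, Fos and Ccnd1, widely used markers of ERK output, were singled out after their values were seen. Egr1 stood at 25.2, 25.3, 25.5 and 26.9 RPKM in control and at 21.3, 19.3, 19.1 and 22.6 RPKM in knockout libraries. Fos stood at 7.46, 8.22, 8.26 and 8.16 RPKM in control and at 6.22, 5.98, 5.85 and 6.71 RPKM in knockout libraries. Both immediate-early genes were lower in all 4 knockout libraries (adjusted p = 0.00091 and 0.000727, limma). Other genes of this list went both ways. Nr4a1 rose from 3.07 to 3.9 RPKM and Myc fell from 42.2 to 35.7 RPKM (adjusted p = 0.00674 and 0.00322, limma). Junb and Ier2 were not called (adjusted p = 0.0839 and 0.431). Ccnd1, the cyclin D1 gene, rose from 74.9 ± 1.51 to 96.5 ± 3.81 RPKM (adjusted p = 1.84e-05).

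**Figure D5:**
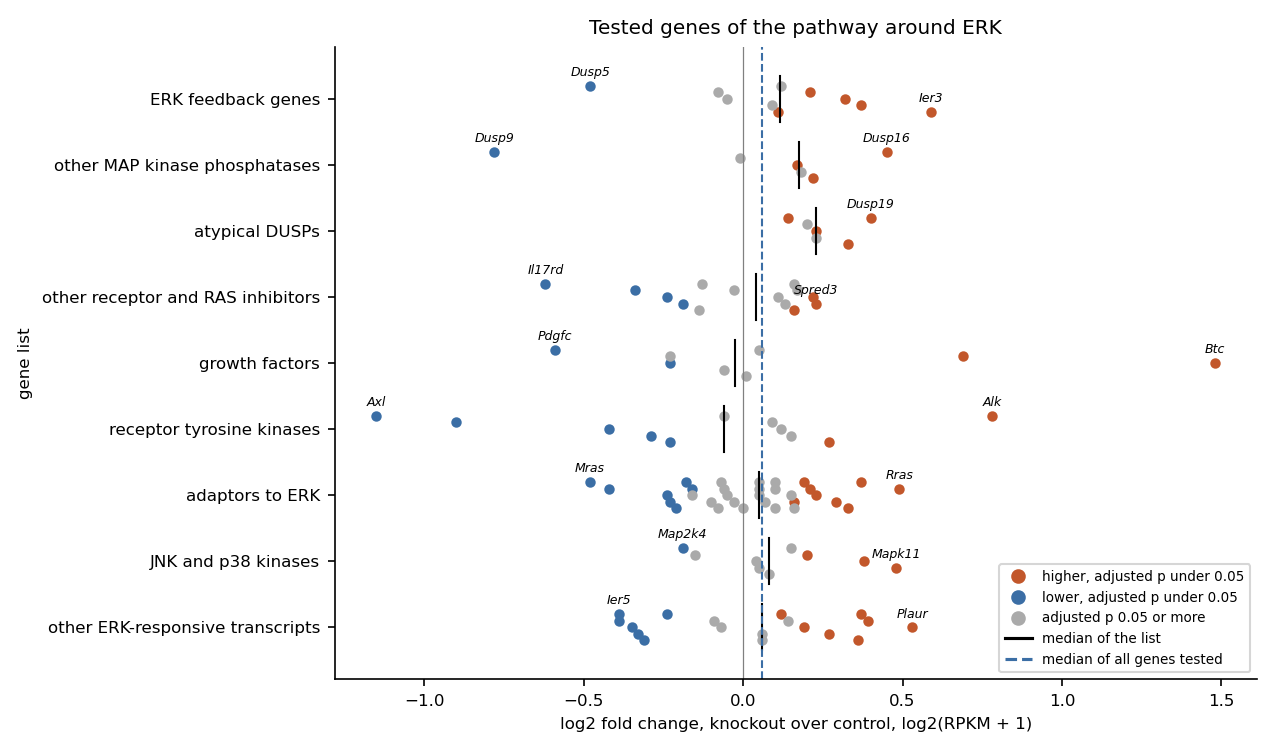
Log2 fold change (x axis, knockout over control, log2(RPKM + 1)) of every tested gene in each list (rows). Colours give the call, black lines the list medians, and the dashed line the median of all tested genes at 0.06. The gene with the greatest called rise and fall in each list is named, from Axl at -1.15 to Btc at 1.48.

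The genes whose profile over the 8 libraries was most like that of Dusp6 were sought among the 7692 genes that averaged 5 RPKM or more, by the root-mean-square difference of log2(RPKM + 1) centred on each gene's mean. They were Nfe2l2, the gene of the antioxidant-response factor NRF2, on chromosome 2 (difference 0.021), Ptgir, the prostacyclin receptor gene (0.022), and Rrm2b, a ribonucleotide reductase subunit gene (0.024). Mean RPKM went from 18 ± 0.835 to 21.2 ± 0.909 for Nfe2l2, from 10.3 ± 0.742 to 12 ± 0.873 for Ptgir and from 4.81 ± 0.277 to 5.7 ± 0.39 for Rrm2b. Likeness to Dusp6 includes its difference between the groups, so the limma results of these genes are not given.

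The authors' deposited table called 5 of the 10 members. It called 27.2% of its 23038 genes, a total that includes 4907 genes listed at 0 in every library. Of the 11465 genes tested here, which include all members, it called 44.2%, so 5 of 10 is close to that share. The members called were Ier3 (log2 fold change 0.61, adjusted p = 6.51e-21), Spred1 (0.38, 1.8e-09), Spry1 (0.35, 1.86e-05), Dusp6 (0.21, 0.00193) and Dusp5 (-0.60, 1.31e-06), all per the authors' deposited table. These 5 were also called here and in the same direction. The authors' deposited table gives Dusp4, the sixth gene called here, an adjusted p of 0.0619.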

How the data were processed

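The authors deposited 1 table of RPKM values for 8 libraries with their own log2 fold change, mean log2 CPM, p-value and adjusted p-value per gene. Per the labels' protocols, stranded libraries were made from RNA after ribosomal depletion. The tools of the authors that the submitters' processing notes name, without role or order, are Bowtie, TopHat, RSEM, CASAVA and edgeR, and the build named is hg19. The gene IDs are of mouse, and the sources used here do not give the build, annotation or use of strand behind the values. Of 23038 gene IDs 22959 matched RefSeq on GRCm38.p6, used for names, chromosomes and promoters.

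RPKM values carry no stated depth. Reads per library were estimated from the steps between low RPKM values and from the lowest mean log2 CPM, assuming that the authors used edgeR's default prior count of 2. Precision is given as SD, SE and intervals over libraries.

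From the deposited RPKM values, log2(RPKM + 1) was fitted with limma 3.58.1 (R 4.3.3), a trended prior and no covariate besides group, and the fit was tested on simulated data. Fold changes on that scale understate low genes; folds are of mean RPKM where so named. The members and lists were chosen with earlier results of these data known. In each list up to 4 called genes with the largest change are named, at most 3 in 1 direction. Some genes that this rule names are not reported here. The list of receptor and RAS inhibitors names 19 genes, of which 1 was not analysed here. Alternatives were pseudocounts of 0.1 and 0.5, other filters and scalings, no variance trend, a replicate block, and libraries left out.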

Additional observations from a re-analysis of the deposited data

Results flagged for a closer look

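In 5 groups of 4 libraries, 1 library lay far from the other 3, with a gap to the nearest of them past Dixon's 95% critical value for 4 samples. Chance flags about 1 in 20 groups, and 110 groups were examined. Spred1 stood at 69.4 RPKM in knockout library 1, under 77.9 to 79.3 RPKM in the other knockout libraries. Without that library its log2 fold change was 0.42 (adjusted p = 2.17e-05, limma); the alternatives spanned 1.59e-05 to 0.00118. Jun stood at 23.7 RPKM in control library 2, over 22.2 to 22.3 RPKM in the other controls. Egr1 stood at 26.9 RPKM in control library 4, Fos at 7.46 RPKM in control library 1 and Fgfr1 at 32.6 RPKM in control library 1. None of these 5 genes lost its call without any 1 library.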

How the results depend on the processing

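Over 17 alternatives, 160 of 169 member values kept their direction and side of the threshold; the changes of Ier3, Spred1, Spry1, Dusp6 and Dusp5 did so throughout, except that Dusp5 was not tested at a minimum of 5 RPKM. Spry4 changed sign without control library 4 and knockout library 1 (0.02). Map2k2 changed sign there (-0.01) and with median-of-ratios scaling (-0.02). Calls over all genes ranged from 4335 to 5485 when 1 library was left out, and member calls from 5 to 7. Calls of other MAP kinase phosphatases were 2 with no filter, with a minimum of 5 RPKM and with either scaling, and 2 to 4 without 1 library. Calls of atypical phosphatases were 2 with median-of-ratios scaling and 2 to 6 without 1 library. Growth factor calls were 8 with no filter and 1 at 5 RPKM, where fewer genes are tested, and 3 to 5 without 1 library. The ranges without 1 library were 5 to 9 for receptor and RAS inhibitors, 7 for receptors, 13 to 17 for the relay, 12 to 14 for ERK-responsive transcripts and 3 to 5 for stress kinases. Where no construction shows it, the cause was not tested. Same-numbered libraries of the groups deviated together with correlations of 0.176, 0.023, -0.192 and -0.084. Differently numbered libraries gave -0.316 to 0.26, so the numbers show no pairing, which so few libraries cannot exclude. With the replicate block 5205 genes were called and the same 6 members, and Dusp8 lost its call (adjusted p = 0.0757).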
